A study of Mus musculus with 12 samples.

Results

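Neutrophil recruitment and calprotectin genes were examined as a set of 10 named genes: the chemokine ligands Cxcl1, Cxcl2, Cxcl3 and Cxcl5, the chemokine receptor Cxcr2, the growth factor Csf3 and its receptor Csf3r, the calprotectin subunits S100a8 and S100a9, and Lcn2. They were chosen by name for their known roles in bringing neutrophils to inflamed tissue and in the antimicrobial proteins used there. All 10 were among the 17734 genes of the expression table, and all 10 were among the 15315 genes that averaged 0.1 FPKM or more over the 12 mice and were tested. FPKM is a read number scaled for transcript length and sequencing depth. Csf3, Cxcl3 and S100a8 were listed at 0 in all 6 mice without colitis and so passed this minimum through the mice with DSS. For Csf3 the colitis_BBR mice would not have sufficed. Cxcl2, at 0.08 FPKM or less in the mice without colitis, also passed the minimum through the mice with DSS.

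The study sequenced RNA from the large bowel, named colorectum and colon in the labels and rectum in the methods, of adult male C57BL/6 mice, 3 in each of 4 groups. Normal mice had no DSS and no berberine (BBR), a plant alkaloid; the group normal_BBR had BBR by daily gavage, for 6 days in the protocol of the labels, although the sample names carry 7 days for every group and the methods describe daily doses from day 1 to day 7. The colitis group drank DSS, a sulfated polysaccharide that injures the colon lining, for 7 days, and colitis_BBR had DSS for 7 days with BBR on the same schedule as normal_BBR. The mice carry a number in the labels: 1, 3 and 4 in normal and in normal_BBR, 1, 2 and 4 in colitis, and 2, 3 and 4 in colitis_BBR. The 12 samples are read as 1 library from each of 12 mice, and DSS injury is a chemical model without a genetic change.

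Neutrophils leave the blood in response to CXC chemokines with a Glu-Leu-Arg motif, which in mice include CXCL1, CXCL2, CXCL3 and CXCL5 and which act through the receptor CXCR2. Granulocyte colony-stimulating factor, the product of Csf3, acts through CSF3R on the bone marrow to raise neutrophil output. Arriving neutrophils carry large amounts of calprotectin, the S100A8 and S100A9 heterodimer that binds zinc and manganese, and lipocalin-2, the product of Lcn2, which binds bacterial siderophores and is also made by the gut epithelium; faecal calprotectin and lipocalin-2 are common markers of gut inflammation.

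Colitis raised 5 of the 10 genes, namely Cxcl1, Cxcl2, Cxcl3, Csf3 and S100a8, at an adjusted p under 0.05 (limma on log2(FPKM + 0.1), Benjamini-Hochberg over all tested genes). Among all 15315 tested genes, 100 rose by that rule, 0.653%. The limit that the study's methods state, an unadjusted P of at most 0.05, was met by all 10 genes in the upward direction against 5.56% of tested genes. In 9 of the 10, every colitis mouse lay above every normal mouse, which 7.10% of tested genes also did. Cxcr2 was the exception. With any 1 of the 3 normal mice, colitis mouse 1 or colitis mouse 2 left out, 2 genes stayed past the adjusted limit, Csf3 and Cxcl2; of tested genes 0.0653% rose without normal mouse 1 or 3, 0.0784% without normal mouse 4, 0.0849% without colitis mouse 1 and 0.248% without colitis mouse 2. Without colitis mouse 4 the limit was passed by 7 (0.849% of tested genes rose then). These counts depend on the mice numbered 4, whose libraries stood apart. With a block for them 9 of the 10 rose, all but Cxcr2, against 2.80% of tested genes. With the mice numbered 1 to 3 alone, which leaves 2 mice in each group, all 10 rose, against 1.56%. In colitis mice receiving BBR the mean log2 level of all 10 genes was below that of colitis mice, but no gene passed the adjusted limit (0 of 10, and 0% of all tested genes). With a block for the mice numbered 4, Csf3 passed it (adjusted p = 0.0420), 1 of 2 genes past the limit among all tested. Without that block, the unadjusted limit was met by 4 of the 10 in the downward direction, Csf3, Cxcl2, Cxcl3 and Lcn2, against 5.20% of tested genes. That count was 2 without colitis mouse 2 (4.21% of tested genes), 2 without colitis_BBR mouse 4 (9.54%) and 7 without colitis_BBR mouse 3 (7.54%). Csf3 and Cxcl2 alone had all 3 colitis_BBR mice below all 3 colitis mice, against 5.66% of tested genes. The RNA came from whole tissue, so that fewer cells expressing a gene and less RNA per cell cannot be told apart in these data.

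**Figure D1:**
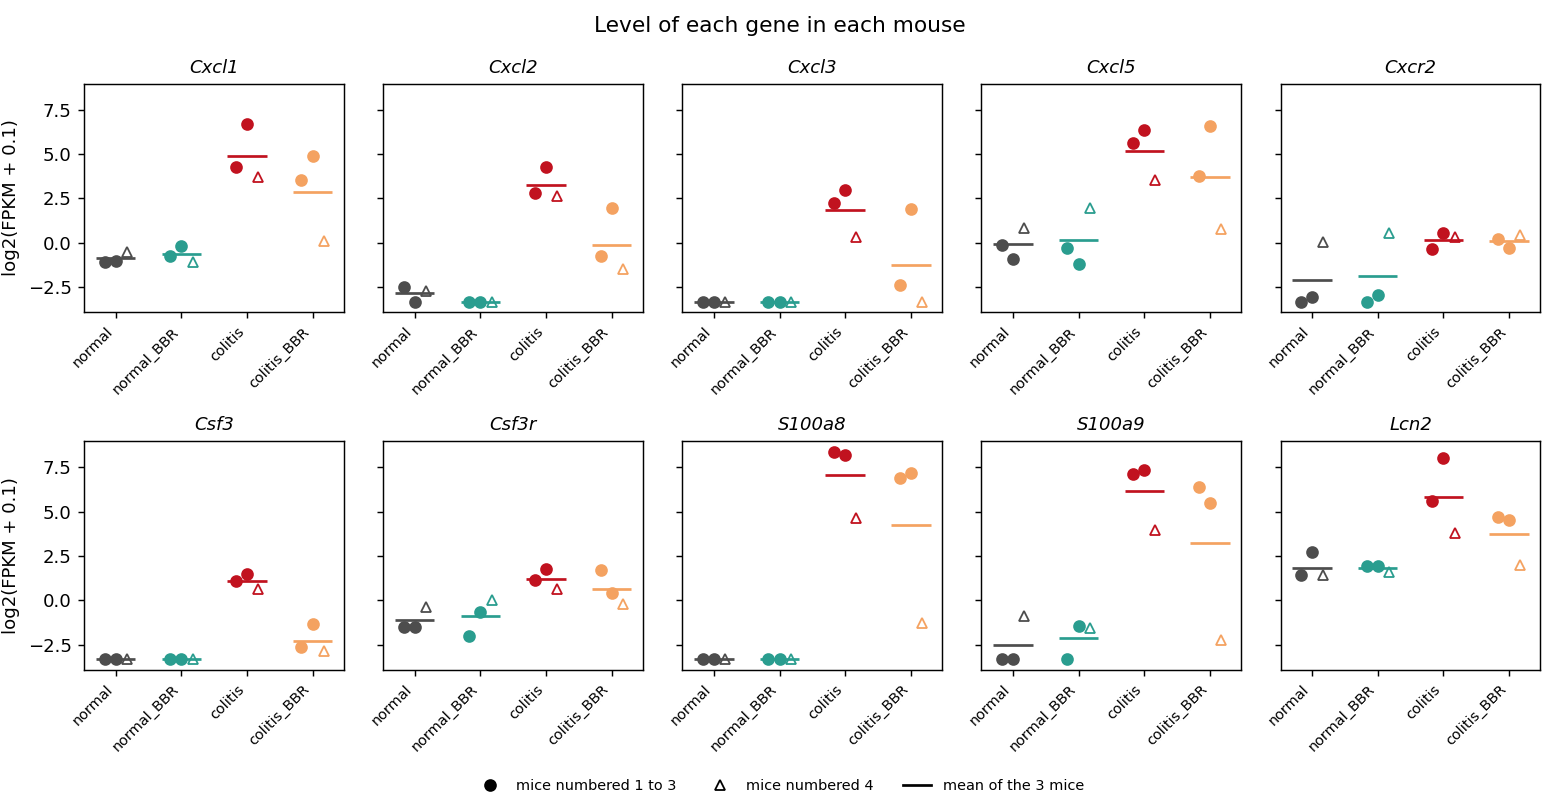
Level of the 10 genes in each mouse on the log2(FPKM + 0.1) scale, by group. Filled circles are mice numbered 1 to 3, open triangles are the mice numbered 4, and lines are group means of the 3 mice; for Csf3 the 3 colitis mice lie between 1.44 and 2.76 FPKM and the 3 colitis_BBR mice between 0.04 and 0.30 FPKM.

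Some facts of the libraries touch these genes. The 4 mice numbered 4 stood apart in every group: their FPKM values summed to between 482194 and 504337 over all genes against 696286 to 765876 in the other 8, and 872 to 1086 genes were listed at 0 in them against 1332 to 1926. The spacing of low values fitted whole reads best when the transcript length was shortened by 250 to 300 bases in mice 1 to 3 but by 20 to 40 bases in the mice numbered 4, with 59.8% to 70.9% of the values used within 0.15 of a whole read. On that estimate the libraries held 14600000 to 19300000 reads. A short transcript is scaled the most by such a step: S100a8 was left with 186 to 236 effective bases in mice 1 to 3 and with 446 to 466 in the mice numbered 4, so that equal read numbers gave a higher FPKM in mice 1 to 3. The study's methods describe a single protocol for the libraries, with single-end reads of 50 bases on a BGISEQ-500 sequencer, while the labels name an Illumina kit. Whether the mice numbered 4 were handled apart is not given in the sources used here.

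**Figure D2:**
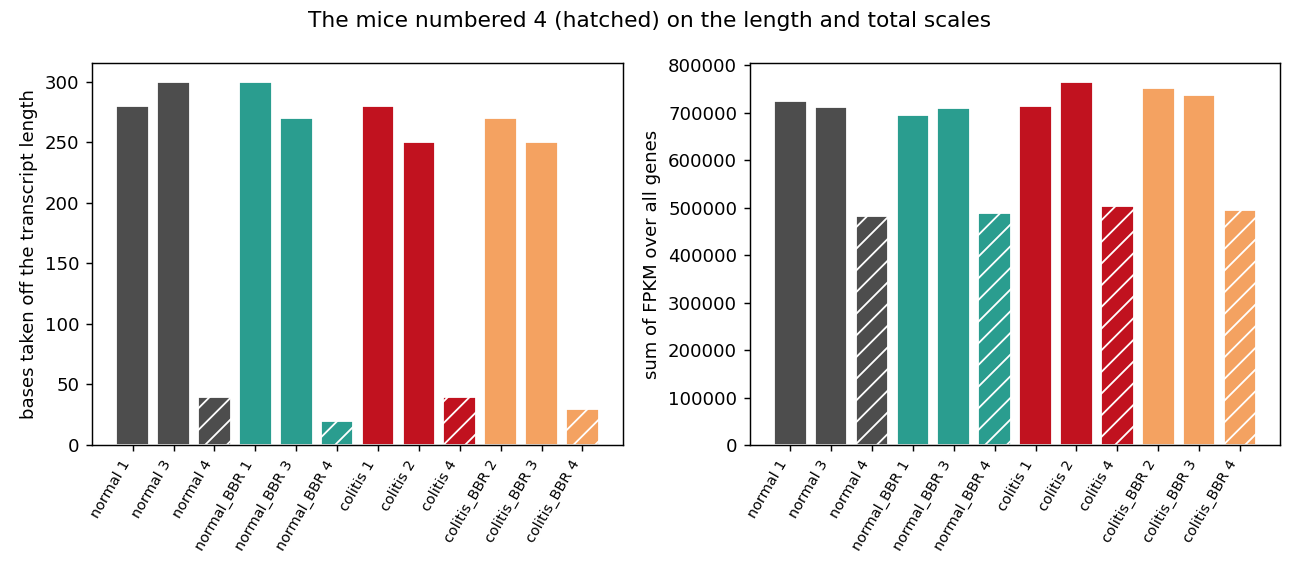
Left, bases taken off the transcript length in the best fit of low values to whole reads, for each mouse; right, the sum of FPKM over all genes. The mice numbered 4 are hatched; all 4 lie at 40 bases or fewer and at 504337 FPKM or less, under every other mouse.

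The tissue was checked against marker lists. A list of 12 colon epithelial genes summed to 10718 to 19987 FPKM over the 12 mice, and the squamous list of the anal canal and skin to 2.64 to 11.7 FPKM, with its basal markers Krt5 at 0.12 FPKM or less and Trp63 at 0.18 FPKM or less in every mouse. The squamous sum was 3.65 to 5.04 FPKM in normal and 5.13 to 11.7 FPKM in colitis mice. Of its 9 tested genes, Krt6a, Krt6b and Krt13 met the unadjusted limit upward in colitis, against 5.56% of tested genes, and 0 downward. In colitis_BBR against colitis, Krt6a and Krt6b met it downward, against 5.20%, and 0 upward. None passed the adjusted limit in either comparison. Smooth muscle markers summed to 1659 to 3120 FPKM in the normal group, 73.3 to 669 FPKM in the colitis group, 482 and 502 FPKM in colitis_BBR mice 3 and 2, and 3501 FPKM in colitis_BBR mouse 4. The part of this muscle content in the results was not tested.

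Cxcl1, Cxcl2, Cxcl3 and Cxcl5 lie together on chromosome 5, in a stretch of 7 protein-coding genes whose order in the RefSeq annotation of GRCm38.p6 is Cxcl5, Ppbp, Pf4, Cxcl3, Cxcl15, Cxcl1 and Cxcl2. The 3 ligands Cxcl1, Cxcl2 and Cxcl3 have promoters with the same NF-kappaB consensus match just upstream of the start. RefSeq promoter sequences of GRCm38.p6 were matched for 8 of the 10 genes, all but Csf3 and Cxcl5; this build is used for the sequences alone, since the submitters' processing notes name mm9 for the expression values. The 120 bases before the annotated start of the 3 ligands are shown, on the plus strand, with the NF-kappaB match in capitals, because the 3 genes carry it in identical form.
Cxcl1, chr5:90891125-90891244: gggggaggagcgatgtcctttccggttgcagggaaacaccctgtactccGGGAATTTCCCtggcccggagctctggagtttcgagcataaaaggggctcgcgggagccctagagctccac
Cxcl2, chr5:90903779-90903898: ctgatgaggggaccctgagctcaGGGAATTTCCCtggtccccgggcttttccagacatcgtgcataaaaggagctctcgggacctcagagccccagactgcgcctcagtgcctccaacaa
Cxcl3, chr5:90785981-90786100: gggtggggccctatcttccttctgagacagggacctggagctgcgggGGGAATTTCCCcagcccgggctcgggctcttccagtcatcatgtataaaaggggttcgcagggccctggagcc
The matched 10 bases GGGAATTTCC began at positions -71, -97 and -73, counted from the start, in Cxcl1, Cxcl2 and Cxcl3, and the match on the other strand overlaps it. Searched on both strands over windows from 250 bases before to 50 after the start, the consensus was present in 2779 of 32851 promoters, 8.46%. Csf3r also held a match, on the minus strand, and the windows of Cxcr2, S100a8, S100a9 and Lcn2 held none. The motif TATAAA was found in 8.32% of promoters, and Cxcl3 and S100a8 carried it before the start and S100a9 at the start itself. A C/EBP motif, TTNNGNAA, was in 40.7% of promoters and in those of Cxcl2, S100a8, S100a9 and Lcn2. An AP-1 motif, TGANTCA, was in 7.81% and in none of the 8. These are letter matches, not measured binding.

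Cxcl1, which encodes the main neutrophil chemokine of injured epithelium and stroma, was low without colitis. Its level was 0.38, 0.39 and 0.59 FPKM in normal mice 1, 3 and 4, and 0.50, 0.79 and 0.38 FPKM in normal_BBR mice 1, 3 and 4. With DSS alone, mice 1, 2 and 4 had 19.0, 103 and 13.2 FPKM, and colitis_BBR mice 2, 3 and 4 had 11.7, 30.1 and 0.99 FPKM. Every mouse with DSS was above every mouse without it, and colitis mouse 2 was far above the other 2 colitis mice. Cxcl1 rose in colitis by 5.77 ± 1.03 on the log2 scale (SE, adjusted p = 0.0288). The difference between colitis_BBR and colitis was -2.03 ± 1.03 (SE, adjusted p = 0.840), and the groups overlapped. Without colitis_BBR mouse 4 alone it was -0.66, among the mice numbered 1 to 3 -1.24, and between the mice numbered 4 -3.61.

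Cxcl2 encodes a chemokine made chiefly by macrophages and neutrophils themselves, and its levels fell into 3 ranges, mice without DSS, colitis_BBR and colitis. In normal mice 1, 3 and 4 it was 0.08, 0 and 0.05 FPKM, which corresponds to about 1 read or none, and it was listed at 0 in all 3 normal_BBR mice. Levels were 6.93, 19.0 and 6.09 FPKM in colitis mice 1, 2 and 4. In colitis_BBR mice 2, 3 and 4 they were 0.49, 3.73 and 0.26 FPKM. The lowest colitis mouse was thus above the highest colitis_BBR mouse, and the lowest colitis_BBR mouse was above the highest normal mouse. Cxcl2 rose in colitis (adjusted p = 0.00707), with group means of 0.0433 ± 0.0404 and 10.7 ± 7.22 FPKM (SD, n = 3). Between colitis_BBR and colitis the difference was -3.33 ± 0.75 on the log2 scale (SE, unadjusted P = 0.000817), with an adjusted p of 0.435; the exact two-sided permutation test gave 0.1, the smallest value that 3 mice against 3 allow.

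Cxcl3, a close relative of Cxcl2, was listed at 0 in all 6 mice without colitis. The values of colitis mice 1, 2 and 4 were 4.58, 7.74 and 1.16 FPKM, and colitis_BBR mice 2, 3 and 4 had 0.09, 3.61 and 0 FPKM. Colitis_BBR mouse 3 lay within the colitis range, and the value of mouse 2 corresponds to about 1 read. The rise in colitis passed the limit (adjusted p = 0.0477), and no fold is given against a group listed at 0. Colitis_BBR differed from colitis by -3.12 ± 1.08 on the log2 scale (SE, unadjusted P = 0.0142, adjusted p = 0.608). Of the stretches of 50 bases, the read length the methods give, in annotated transcripts, 126 are shared by Cxcl2 and Cxcl3, which is 5.84% of those of Cxcl2, so that a part of their reads can be assigned to either gene. No such stretch was shared between any other pair of the 10 genes. With annotated transcripts of genes outside the set, Csf3r shared 385 of its 3676 stretches (10.5%), Cxcr2 122 of 3039 (4.01%), Cxcl3 26 of 3587 and Cxcl5 13 of 1876, so that their levels carry the same uncertainty.

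Cxcl5 encodes a chemokine made mainly by epithelial cells, and it was the most abundant of the ligands in several mice. Levels in normal mice 1, 3 and 4 were 0.80, 0.43 and 1.68 FPKM. In normal_BBR mice they were 0.73, 0.34 and 3.82 FPKM, with the mouse numbered 4 highest in both groups. In colitis, mice 1, 2 and 4 had 48.9, 81.2 and 11.6 FPKM. Colitis_BBR mice 2, 3 and 4 had 13.3, 95.4 and 1.62 FPKM, so that colitis_BBR mouse 3 exceeded every colitis mouse and mouse 4 stood within the normal range. The colitis difference was 5.25 ± 1.27 on the log2 scale (SE), past the unadjusted limit alone (adjusted p = 0.0674). The adjusted p was 0.0358 with a block for the mice numbered 4 and 0.0883 with a block for each replicate number. The limit was passed in 0 of 6 fits that left out 1 mouse and in 3 of 12 other settings. Against colitis, colitis_BBR differed by -1.47 ± 1.27 (SE, adjusted p = 1.00), with a 95% interval from -4.25 to 1.31. Without colitis_BBR mouse 4 alone this was -0.0098, among the mice numbered 1 to 3 it was -0.82, and between the mice numbered 4 it was -2.77.

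The make-up of the 4 ligands varied between mice with DSS. Their summed level was 0.82 to 4.20 FPKM in the 6 mice without colitis, 32.1 to 211 FPKM in colitis and 2.87 to 133 FPKM in colitis_BBR. Cxcl5 held 36.1% to 61.6% of the sum in colitis mice and 52.0% to 71.8% in colitis_BBR mice. The share of Cxcl2 was 8.73%, 9.0% and 19.0% in colitis mice 1, 2 and 4, against 1.92% and 2.81% in colitis_BBR mice 2 and 3. Colitis_BBR mouse 4 had a Cxcl2 share of 9.06%, within the colitis range, of a sum of 2.87 FPKM, with Cxcl2 at about 5 reads. Shares of FPKM are relative levels of transcripts, and no test was run on them.

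**Figure D3:**
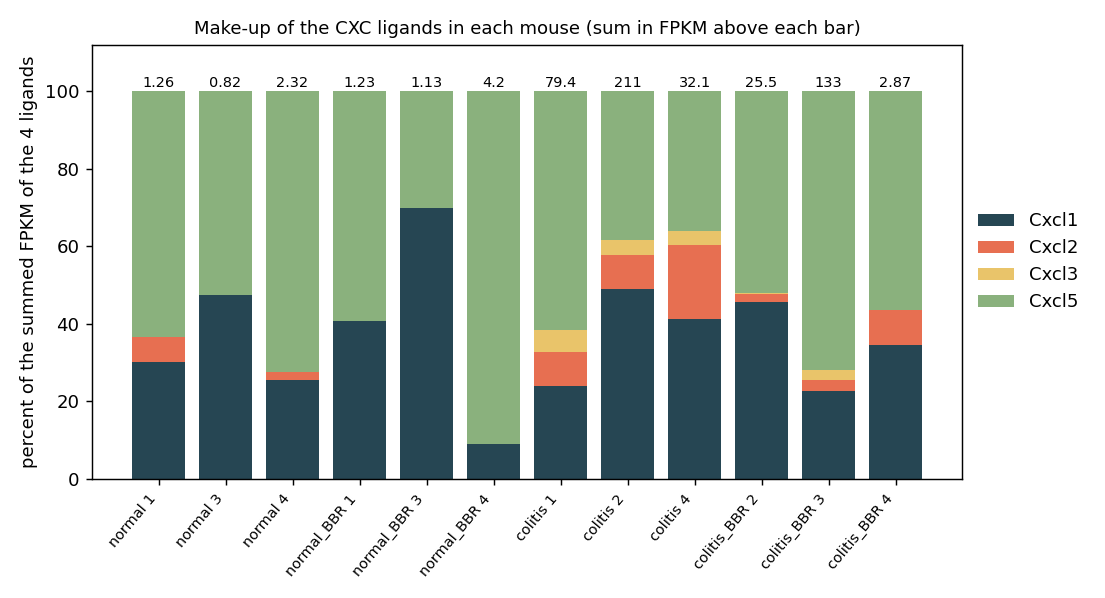
Share of Cxcl1, Cxcl2, Cxcl3 and Cxcl5 in their summed FPKM for each mouse, with the sum in FPKM above the bar. In colitis mice Cxcl2 holds 8.73% to 19.0% of the sum, and in colitis_BBR mice 2 and 3 it holds 1.92% and 2.81%.

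Cxcr2, the receptor for these ligands, is also a marker of mature neutrophils. In normal mice 1, 3 and 4 the level was 0, 0.02 and 0.92 FPKM. Normal_BBR mice had 0, 0.03 and 1.39 FPKM, in the same order, so that in both groups without colitis only the mouse numbered 4 was above the worth of 3 reads. With DSS alone, mice 1, 2 and 4 had 0.69, 1.37 and 1.16 FPKM. Colitis_BBR mice 2, 3 and 4 had 1.05, 0.73 and 1.23 FPKM, within the colitis range. The colitis difference was 2.30 ± 1.02 on the log2 scale (SE, adjusted p = 0.220). Among the mice numbered 1 to 3 alone, 2 in each group, it was 3.30 (adjusted p = 0.0247), against 0.30 between colitis mouse 4 and normal mouse 4. The colitis_BBR difference from colitis was -0.07 ± 1.02 (SE, adjusted p = 1.00), with a 95% interval from -2.29 to 2.16, and it turned positive (0.11) under quantile normalization.

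Csf3, the gene of granulocyte colony-stimulating factor, had the smallest P of the set in both main comparisons. It was listed at 0 in all 6 mice without colitis. The values of colitis mice 1, 2 and 4 were 2.03, 2.76 and 1.44 FPKM, which corresponds to about 35.5, 52.2 and 38.2 reads. Colitis_BBR mice 2, 3 and 4 had 0.06, 0.30 and 0.04 FPKM, or about 1.01, 5.15 and 1.00 reads. Mice without colitis, colitis_BBR mice and colitis mice did not overlap, although a single read set 2 of the colitis_BBR mice above 0. The rise in colitis had an adjusted p of 0.00251, the second smallest P of all tested genes. Group means were 2.08 ± 0.66 FPKM in colitis and 0.133 ± 0.145 FPKM in colitis_BBR (SD, n = 3), a difference of -3.34 ± 0.43 on the log2 scale (SE, 95% interval -4.28 to -2.41). This was the smallest P of all 15315 genes (unadjusted P = 5.51e-06), and its adjusted p of 0.0844 missed the limit. Between mice numbered 4 the difference was -3.46 and between the means of the mice numbered 1 to 3 it was -3.29. With a block for the mice numbered 4 the adjusted p was 0.0420, and without colitis_BBR mouse 3, the highest of its group, it was 0.00586. It was 0.108 with a block for each replicate number and 0.420 with the mice numbered 1 to 3 alone. Of the 6 fits that left out 1 mouse, only the fit without colitis_BBR mouse 3 passed the limit.

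Csf3r, the receptor of that factor and a gene of the neutrophil lineage, was detected in every mouse. Levels were 0.26, 0.25 and 0.66 FPKM in normal mice 1, 3 and 4, and 0.15, 0.54 and 0.91 FPKM in normal_BBR mice 1, 3 and 4. In colitis, mice 1, 2 and 4 had 2.11, 3.27 and 1.47 FPKM, and colitis_BBR mice 2, 3 and 4 had 3.24, 1.22 and 0.77 FPKM. All colitis mice were above all normal mice, while colitis_BBR mouse 2 matched the highest colitis mouse. The colitis difference was 2.31 ± 0.62 on the log2 scale (SE, unadjusted P = 0.00292, adjusted p = 0.0829). The adjusted p was 0.0460 with a block for the mice numbered 4 and 0.0836 with a block for each replicate number. The limit was passed in 0 of 6 fits that left out 1 mouse and in 3 of 12 other settings. For colitis_BBR against colitis the difference was -0.54 ± 0.62 (SE, 95% interval -1.88 to 0.81), -1.08 without colitis_BBR mouse 2 and -0.11 without colitis_BBR mouse 4.

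S100a8, the smaller calprotectin subunit, reached the highest level of the set. It was listed at 0 in all 6 mice without colitis. With DSS alone, mice 1, 2 and 4 had 336, 289.7 and 24.9 FPKM, and colitis_BBR mice 2, 3 and 4 had 118, 148 and 0.31 FPKM. The mouse numbered 4 was the lowest in each DSS group, and the value of colitis_BBR mouse 4 was under the worth of 3 reads. As estimated reads, without the scaling for length and depth, the colitis mice had about 1069.9, 1112 and 215 and the colitis_BBR mice about 376, 514 and 2.56, with the mice numbered 4 again the lowest of their groups. S100a8 rose in colitis (adjusted p = 0.0254). The colitis_BBR difference was -2.80 ± 1.79 on the log2 scale (SE, unadjusted P = 0.144). It was -0.02 without colitis_BBR mouse 4 alone, -1.24 among the mice numbered 1 to 3 and -5.93 between the mice numbered 4.

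S100a9, the larger subunit, followed S100a8 in the DSS groups. Normal mice 1, 3 and 4 had 0, 0 and 0.45 FPKM, and normal_BBR mice 1, 3 and 4 had 0, 0.27 and 0.24 FPKM, at most about 3.92 reads. The values of colitis mice 1, 2 and 4 were 142, 161 and 15.7 FPKM, and colitis_BBR mice 2, 3 and 4 had 85.3, 45.7 and 0.11 FPKM. All colitis mice stood above all normal mice, while colitis_BBR mouse 4 lay within the normal range at about 1 read. The difference in colitis was 8.66 ± 1.85 on the log2 scale (SE), which missed the limit (adjusted p = 0.0514). Its size depends on the 0.1 added, since 2 of the 3 normal mice were at 0. The adjusted p was 0.0377 with effective lengths made equal across mice and 0.0210 with a block for the mice numbered 4. The limit was passed in 1 of 6 fits that left out 1 mouse and in 6 of 12 other settings. Colitis_BBR differed from colitis by -2.93 ± 1.85 (SE, adjusted p = 0.954), by -0.19 without colitis_BBR mouse 4 alone, by -1.27 among the mice numbered 1 to 3 and by -6.24 between the mice numbered 4. The level of S100a8 over that of S100a9 was 1.58 to 2.37 in colitis mice and 1.39 to 3.23 in colitis_BBR mice.

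Lcn2, the siderophore-binding gene, was the only one of the 10 above 2 FPKM in every mouse. Normal mice 1, 3 and 4 had 2.58, 6.49 and 2.57 FPKM and normal_BBR mice 1, 3 and 4 had 3.78, 3.72 and 2.91 FPKM. In colitis, mice 1, 2 and 4 had 49.3, 264 and 13.7 FPKM. Colitis_BBR mice 2, 3 and 4 had 26.0, 23.5 and 3.82 FPKM. Colitis mice exceeded normal mice without overlap, and colitis_BBR mouse 4 lay within the normal range. The colitis difference was 3.97 ± 0.94 on the log2 scale (SE, unadjusted P = 0.00126, adjusted p = 0.0647), and with a block for the mice numbered 4 the adjusted p was 0.0146. The limit was passed in 1 of 6 fits that left out 1 mouse and in 4 of 12 other settings. For colitis_BBR against colitis the difference was -2.08 ± 0.94 (SE, unadjusted P = 0.0480, adjusted p = 0.771), and the groups overlapped. It was -0.96 without colitis mouse 2, -1.19 without colitis_BBR mouse 4 alone and -2.20 among the mice numbered 1 to 3.

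**Figure D4:**
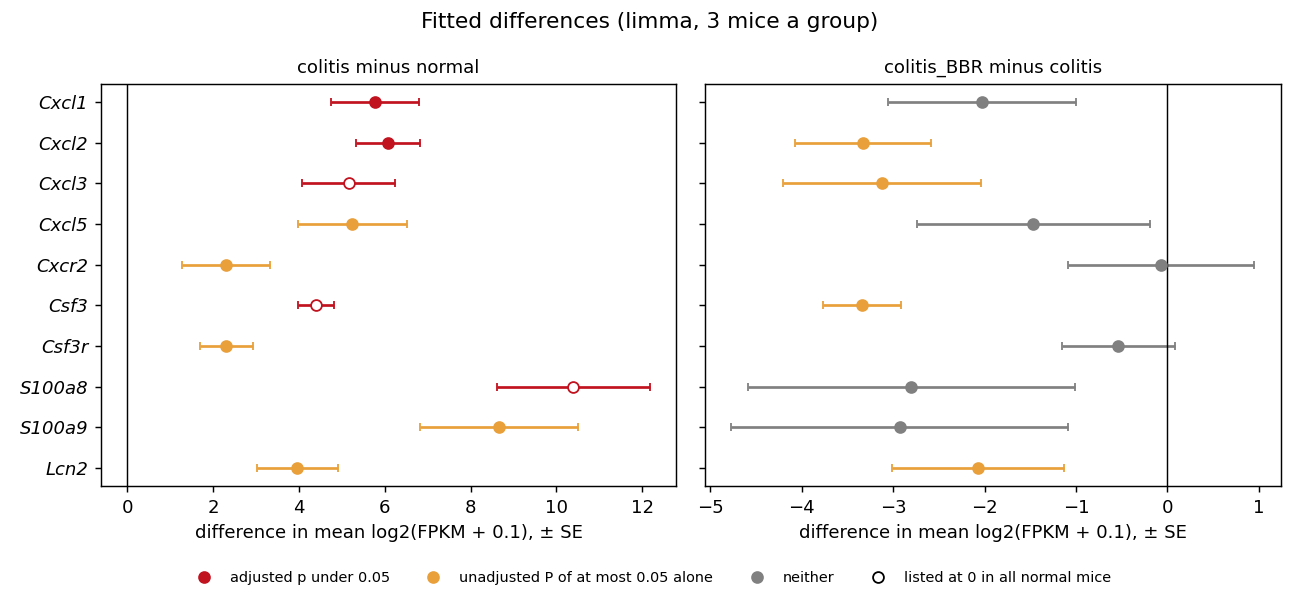
Fitted difference in mean log2(FPKM + 0.1) with its standard error (limma, 3 mice a group) for colitis minus normal, left, and colitis_BBR minus colitis, right. Open points are genes listed at 0 in all normal mice, whose plotted size depends on the 0.1 added and is no fold; on the right the 10 values run from -3.34 for Csf3 to -0.07 for Cxcr2.

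Among the 6 mice with DSS, colitis mouse 2 was the highest for 8 genes and colitis_BBR mouse 4 the lowest for 9. The median difference of the 10 genes between colitis_BBR and colitis was -2.44 on the log2 scale, beside -0.09 over all tested genes. Without colitis_BBR mouse 4 alone, which leaves the low colitis mouse 4 in, the median of the 10 was -0.44, with Csf3 at -3.06 and Cxcl2 at -2.64. With the mice numbered 1 to 3 alone in both groups the median was -1.26, with Csf3 at -3.29 and Cxcl2 at -2.95. With each of the 6 DSS mice left out in turn the difference ran from -3.05 to -0.66 for Cxcl1, from -4.70 to -2.10 for Cxcl3, from -2.91 to -0.0098 for Cxcl5, from -4.27 to -0.02 for S100a8 and from -4.52 to -0.19 for S100a9. Without colitis_BBR mouse 3 the count of genes past the adjusted limit rose from 0 to 3, Csf3, Cxcl2 and Cxcl3, against 0.287% of tested genes. The comparisons colitis against normal and colitis_BBR against colitis share the 3 colitis mice.

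**Figure D5:**
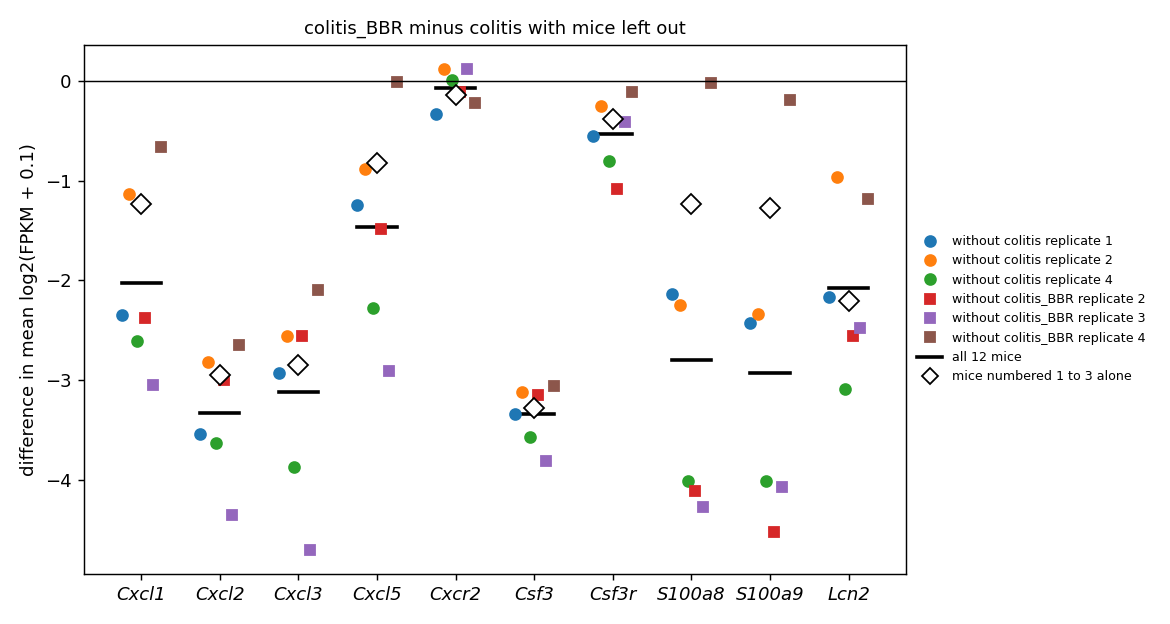
Difference in mean log2(FPKM + 0.1) between colitis_BBR and colitis for each gene with all 12 mice (black bars) and with each of the 6 DSS mice left out in turn (coloured points). Open diamonds show the mice numbered 1 to 3 alone, which are colitis mice 1 and 2 and colitis_BBR mice 2 and 3. S100a8, S100a9 and Cxcl5 are at -0.02, -0.19 and -0.0098 without colitis_BBR mouse 4 but at -1.24, -1.27 and -0.82 with the mice numbered 1 to 3 alone, and Csf3 stays between -3.82 and -3.06 in the 6 refits that leave out 1 mouse.

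In mice without colitis no effect of BBR on the set was detected. None of the 10 passed the adjusted limit in normal_BBR against normal (0% of tested genes did), and none passed the unadjusted limit, which 1.36% of tested genes met in either direction. The 3 genes listed at 0 in normal mice were also listed at 0 in normal_BBR mice. Intervals were wide for several: the 95% interval ran from -2.03 to 2.47 on the log2 scale for Cxcl1, from -2.08 to 2.03 for Lcn2 and from -1.10 to 1.60 for Csf3r. In the test of whether BBR acted differently in colitis and normal mice, no gene passed the adjusted limit (0%). This test cannot bear on Csf3, Cxcl2, Cxcl3, S100a8 or S100a9, which were at 0 or a few reads without DSS, where a fall could not be seen; Csf3 and Cxcl2 were the only members that met the unadjusted limit in it, against 1.72% of tested genes in the downward direction.

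Colitis mice receiving BBR still differed from normal mice by the unadjusted limit in 8 of the 10 genes, all higher, against 1.84% of tested genes. This count was 5 without colitis_BBR mouse 3 (0.829% of tested genes), 6 without colitis_BBR mouse 2 (1.76%) and 9 without colitis_BBR mouse 4 (3.79%). Cxcl3 and Lcn2 were the other 2. None passed the adjusted limit, which 0.00653% of tested genes, 1 gene, passed upward. The groups did not overlap for 5 of the 10, Cxcl1, Cxcl2, Csf3, Csf3r and S100a8, against 1.95% of tested genes. For Csf3 this rests on about 1.01 and 1.00 reads in colitis_BBR mice 2 and 4. For S100a8 it rests on about 2.56 reads in colitis_BBR mouse 4. These values lie under the floor of 3 reads and cannot be told from 0. Without colitis_BBR mouse 4, 6 of the 10 passed the adjusted limit, against 1.73% of tested genes. With the mice numbered 1 to 3 alone, 2 in each group, 7 did, against 1.42%. The difference for Cxcl2 was 2.75 ± 0.75 on the log2 scale (SE, adjusted p = 0.199) and for Cxcl1 it was 3.74 ± 1.03 (SE, adjusted p = 0.201).

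Interleukin-1, interleukin-17 and tumour necrosis factor are known to induce the chemokines and Csf3. Of 17 tested genes for signals upstream of the chemokines, 4 rose in colitis, against 0.653% of all tested genes, the cytokine genes Tnf (5.08 ± 0.74), Il6 (4.57 ± 0.76), Il1a (3.02 ± 0.55) and Il1b (5.11 ± 1.01, log2 scale, SE). Il6, at 0.08 FPKM or less without colitis, and Il17a, at 0 there, passed the minimum for testing through the mice with DSS. Nfkbiz, the gene of an NF-kappaB cofactor, was at 10.2 to 16.6 FPKM without DSS or BBR, against 29.1 to 39.2 FPKM with colitis (adjusted p = 0.0555). Il17a, the cytokine that induces Csf3 and Cxcl1 in epithelium, was listed at 0 in the 6 mice without colitis, at 0.43, 1.27 and 0.05 FPKM in colitis mice 1, 2 and 4, and at 0.30, 1.17 and 0 FPKM in colitis_BBR mice 2, 3 and 4 (adjusted p = 0.177 in colitis). In colitis_BBR against colitis none of the 17 passed the adjusted limit, and 4 met the unadjusted limit downward, against 5.20% of tested genes (the median of the 17 was -0.25): Il6 (-3.08), Il1a (-2.19), Il1b (-3.06) and Il1r1 (-1.25). Tnf, at 17.2, 23.4 and 8.94 FPKM in colitis mice and 7.68, 33.8 and 2.15 FPKM in colitis_BBR mice, did not.

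Of the 3 neighbours of the ligands on chromosome 5, Pf4 and Ppbp did not pass the test in colitis and Cxcl15 was too low to be tested. Pf4, a platelet chemokine gene, was at 16.2 to 28.1 FPKM without DSS or BBR, against 8.58 to 38.5 FPKM with colitis (adjusted p = 0.834). Ppbp was at 0.08 to 0.21 FPKM in normal and 0.10 to 1.26 FPKM in colitis mice (adjusted p = 0.541), and Cxcl15 did not exceed 0.04 FPKM in any mouse. Of 13 tested attractant, receptor and scavenger genes, 2 rose in colitis, the formyl peptide receptor genes Fpr1 and Fpr2, against 0.653% of tested genes. Fpr1, at 0.04 FPKM or less without colitis, passed the minimum for testing through the mice with DSS. Ltb4r1, the leukotriene B4 receptor gene, had a difference of 2.13 ± 0.53 (SE, adjusted p = 0.0704). In colitis_BBR against colitis, Fpr1, Fpr2, Ltb4r1 and Csf2rb met the unadjusted limit downward, against 5.20% of tested genes, and the median of the 13 was -0.60.

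Of 25 neutrophil marker genes, 19 were tested, and 5 rose in colitis, Ltf, Fpr1, Fpr2, Mmp8 and Clec4e, against 0.653% of tested genes. Fpr1, Mmp8 and Clec4e, at 0.04 FPKM or less in mice without colitis, passed the minimum for testing through the mice with DSS. The unadjusted limit was met upward by 15 of the 19 in colitis (5.56% of tested genes) and downward by 9 of the 19 in colitis_BBR against colitis (5.20%), with none past the adjusted limit there and a median difference of -1.66. Ngp, Trem3 and Stfa2l1, at 0 in mice without colitis, and Trem1, at 0.08 FPKM or less there, were also admitted by the mice with DSS. Both counts thus include genes admitted by the mice in which they were high. Ltf, the gene of the iron-binding granule protein lactoferrin, was at 24.4, 32.7 and 26.8 FPKM in colitis mice and 12.9, 38.0 and 0.47 FPKM in colitis_BBR mice. Cd177, a neutrophil surface gene that did not pass the test in colitis (difference 0.11, adjusted p = 0.937), held most of the list's level without DSS once Ly6g was set aside, and 43.98 of 47.5 FPKM in colitis_BBR mouse 4. The 23 markers without Ly6g and Cd177 summed to 1.49 to 4.02 FPKM in normal, 1.5 to 2.24 FPKM in normal_BBR and 37.8 to 111.9 FPKM in colitis mice. In colitis_BBR mice 2, 3 and 4 they summed to 41.6, 50.7 and 3.5 FPKM, so that mouse 4 lay within the normal range. The primary granule genes Mpo and Elane did not exceed 0.23 and 0.09 FPKM in any mouse. Ly6g, used to define mouse neutrophils at the cell surface, was at 259 to 793 FPKM in the 6 mice without colitis, all of which had S100a8 listed at 0, and at 557 to 3710 FPKM in colitis mice. In colitis_BBR mice 2, 3 and 4 it was at 1873, 2749 and 488 FPKM, a difference from colitis of -0.07 ± 0.75 on the log2 scale (SE, adjusted p = 1.00). Ly6g belongs to a family of similar genes, and how reads were shared among them was not tested. Macrophage and monocyte markers summed to 265 to 357 FPKM in normal, 365 to 1063 FPKM in colitis and 196 to 355 FPKM in colitis_BBR mice. In colitis_BBR against colitis 10 of these 14 genes met the unadjusted limit downward, among them Csf1r, Ccr2 and Adgre1, against 5.20% of tested genes, with none past the adjusted limit and a median difference of -1.14. The part of these cells in the chemokine levels was not tested.

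Adhesion genes let neutrophils leave the vessel. None of 10 tested passed the adjusted limit in colitis, and 4 met the unadjusted limit upward, against 5.56% of tested genes, among them Selp (P-selectin, 1.58 ± 0.46), Itgam (1.25 ± 0.40) and Icam1 (1.42 ± 0.47, log2 scale, SE). Pecam1, an endothelial gene, was lower at 2.68 to 5.52 FPKM in colitis against 10.4 to 10.8 FPKM in normal mice (adjusted p = 0.0742). In colitis_BBR against colitis, 6 of the 10, among them Itgam, Itgb2 and Vcam1, met the unadjusted limit downward, against 5.20% of tested genes, and none the adjusted one. Their median difference was -1.01, beside -0.09 over all tested genes.

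Other S100 genes encode calcium-binding proteins with many roles. Of 13 tested, none passed the adjusted limit in colitis, 1 met the unadjusted limit upward (S100a4, 1.39 ± 0.48, against 5.56% of tested genes) and 3 downward (15.9% of tested genes), among them S100g (-4.76 ± 1.45) and S100b (-1.92 ± 0.56, log2 scale, SE). S100g, a calcium-binding gene of absorptive epithelium, was at 63.1 to 143 FPKM in the normal group, 2.12 to 9.79 FPKM in the colitis group and 729, 50.5 and 2.95 FPKM in colitis_BBR mice 2, 3 and 4. Among 13 genes for calprotectin receptors and metal or iron withholding, Ltf rose in colitis, against 0.653% of tested genes, and 1, Slc11a1, met the unadjusted limit downward in colitis_BBR against colitis, near the 5.20% of tested genes. Tlr4, a receptor for calprotectin, had a difference of 0.95 ± 0.34 (SE, adjusted p = 0.151), Steap4, a metalloreductase gene, one of 3.45 ± 1.02 (SE, adjusted p = 0.108), and Cd36, a scavenger receptor gene, one of -2.31 ± 0.61 (SE, adjusted p = 0.0811).

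The genes whose pattern over the 12 mice was most like the mean standardized level of the 10 genes were Asah1, Tc2n, Prss22, Dgat2 and Dmgdh, with Pearson r between 0.969 and 0.973 on the log2 scale among 11935 candidates. The 12 points share 3 libraries a group and the split between mice with and without DSS, and the r is a description. Prss22, a serine protease gene, ranged from 0 to 0.04 FPKM over the normal mice and from 3.75 to 20.7 FPKM with colitis. Dgat2, a triglyceride synthesis gene, ranged from 16.9 to 24.3 and from 45.7 to 106 FPKM.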

How the data were processed

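RNA of 12 mice was sequenced by the authors, who filtered reads with SOAPnuke, aligned them with Bowtie2 2.2.5 and estimated expression with RSEM 1.2.12; the submitters' processing notes name build mm9. The deposited table gives each gene a single value in each mouse, taken here to be FPKM: the unit is inferred from the values, whose sums differ between mice, and the values could also be TPM. The labels name an Illumina TruSeq kit, the methods rRNA depletion and single-end reads of 50 bases. Of its 17734 genes, 24 were at 0 throughout.

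Genes that averaged 0.1 or more, 15315 in number, were put on the log2(FPKM + 0.1) scale. The model (limma 3.58.1, R 4.3.3) had 1 mean for each group, an empirical Bayes spread with a trend, and Benjamini-Hochberg adjustment over all tested genes. Fold changes on this scale understate the change of low genes. Exact two-sided permutation tests compared 3 mice with 3, and cannot go below 0.1. The labels do not say that the mice came from separate litters or cages, so p-values measure the spread between these mice. The table holds no counts. Reads per value were estimated from the spacing of low values in 2165 single-transcript genes, with a length offset fitted in each mouse after a fixed one had fitted less well; this was chosen after seeing the data. With 3 reads as the floor, Csf3 and Cxcl3 lay under it in 8 of 12 mice, S100a8 in 7, Cxcl2 and S100a9 in 6 and Cxcr2 in 4. These floors cover counting error only.

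The members and lists were chosen with earlier results of these data known. Beside the 10 genes, the rule names the largest changes of each list, up to 3, and the 5 genes most like the set; Nfkbiz, Il17a, Pf4, Ppbp, Cxcl15, Ltb4r1, Tlr4, Cd36, Cd177 and the markers were named after their values were seen. Mice with the same number deviated together in normal and normal_BBR (3 pairs, r = 0.29, 0.11 and 0.66), each over 0.1, so the number was taken to pair these mice; normal mouse 1 with normal_BBR mouse 3 (0.37) and normal mouse 3 with normal_BBR mouse 1 (0.46) correlated more than mice 1 and 3 did with their own number. Alternatives were other pseudocounts, filters and scalings, no trend, the compared groups fitted alone, a replicate block and a block for the mice numbered 4. Others were mice 1 to 3 alone, with 2 mice a group, leaving out each mouse, and equal effective lengths across mice, the last added after seeing the data. On simulated data with 200 of 15315 genes changed in colitis against normal, 120 passed the limit at a log2 change of 2 (4 false calls) and 183 at 4 (5 false calls).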

Additional observations from a re-analysis of the deposited data

How the results depend on the processing

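In colitis against normal, 5 genes of the set and 165 of all tested genes, in either direction, passed the adjusted limit. For the set the count was 4 with a pseudocount of 1, with no filter, with centring on the median and with no trend, and Cxcl3 was lost in these. It was 3 with a filter at a mean of 1, where 8 of the 10 were tested, and 8 with the compared groups alone. With a block for the mice numbered 4 it was 9, with the mice numbered 1 to 3 alone 10, and with each mouse left out 2 to 7. For all tested genes it was 91 with a pseudocount of 0.01, 71 with the stricter filter, 258 after quantile normalization, 488 with the compared groups alone, 734 with the replicate block, 1412 with a block for the mice numbered 4, 804 with mice 1 to 3 alone and 11 to 211 with each mouse left out. Quantile normalization moved the median difference of all tested genes from -0.32 to -0.05. In colitis_BBR against colitis, 1 gene of the set, Csf3, passed the limit with a pseudocount of 1, with no filter, with no trend, with a block for the mice numbered 4 and with equal effective lengths, and 0 to 3 did with each mouse left out; for all tested genes the counts were 4 and 2 with a pseudocount of 1 and 0.01, 1 with no filter, 3 with no trend, 1 with the replicate block, 2 with a block for the mice numbered 4, 5 with equal effective lengths and 0 to 58 with each mouse left out. In colitis_BBR against normal, 7 genes of the set passed with mice 1 to 3 alone and 0 to 6 with each mouse left out; of all tested genes 0 passed with the compared groups alone, with no trend and with the replicate block, 40 with a block for the mice numbered 4, 2157 with mice 1 to 3 alone, 11 with equal effective lengths and 0 to 2895 with each mouse left out. In normal_BBR against normal, 1 gene, no member of the set, passed with the compared groups alone. The cause of these changes was not tested.

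The replicate number was taken to pair normal and normal_BBR mice, although mice 1 and 3 of these groups correlated better across numbers, and there the replicate block changed no call (0 genes). The other groups share 2 numbers, and with the replicate block 7 of the set passed in colitis against normal, 0 in colitis_BBR against colitis and 0 in colitis_BBR against normal. Over all groups, mice with the same number had a mean correlation of deviations of 0.34 and mice with different numbers -0.10. Among mice 1 to 3 these were 0.21 and 0.19, and between mice numbered 4 it was 0.50.

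A direction turned for Cxcr2 in colitis_BBR against colitis (0.113 after quantile normalization, 0.083 after centring on the median, -0.33 to 0.12 with each mouse left out). In normal_BBR against normal it turned for Cxcl5 (-0.19 with mice 1 to 3 alone) and Lcn2 (0.051 after quantile normalization and 0.0089 after centring on the median). With each mouse left out the values there ran from -0.023 to 0.42 for Cxcl1, -0.65 to 0.93 for Cxcl5, -1.02 to 1.29 for Cxcr2, -0.19 to 0.81 for Csf3r, -0.012 to 1.22 for S100a9 and -0.24 to 0.41 for Lcn2, and in the test of BBR and colitis together from -1.36 to 0.95 for Cxcr2. Depth limits Csf3, Cxcl2, Cxcl3, S100a8 and S100a9 in mice without DSS, where values of 0 cannot be told from a few reads.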
